A study of Vitis vinifera with 6 samples.

Results

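The genes described here are 9 expansin genes of the grapevine terminal bud, chosen as a list of identifiers, out of the 29971 genes in the deposited table. Their transcripts were read by RNA-Seq from terminal buds of the autotetraploid (4X) that colchicine had induced from the Vitis vinifera accession ‘Jingyanjing’, and from those of the diploid ‘Jingyanjing’ itself (2X). Each ploidy had 3 libraries, and for each of them buds of several vines were mixed. The vines of both ploidies came from tissue culture and grew in a vineyard under the same care. All buds were taken shortly before those of 4X abscised, and 2X buds do not abscise in this way. The sources used here do not say from how many independent 4X lines the sequenced buds came. A bud holds meristem, young leaves and stem tissue together, so fewer cells of a type and less RNA per cell cannot be told apart.

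Expansins are secreted proteins that loosen the plant cell wall without cutting its polymers. They act at acid pH and weaken the contacts between cellulose and the polysaccharides around it, so that turgor can stretch the wall. Plants carry them as a large gene family, and different copies are used in growing shoots, roots, ripening fruit and sites of organ separation. The identifiers carry no name or subfamily in the sources used here. The genes are therefore called by identifier, and they are expansins by the list alone. By their identifiers they lie on chromosomes 1, 4, 13, 14, 15, 17 and 18, with 2 of them, VIT_06s0004g00070 and VIT_06s0004g04860, on chromosome 6.

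The libraries were alike in summed FPKM, in the number of genes found and in estimated depth. The FPKM of all genes, that is fragments scaled to the length of the transcript and to the mapped fragments of the library, summed to between 1028187 and 1125409 per library. The number of genes at 1 FPKM or more ranged from 17816 to 18058. The deposited values hold no read counts. Depth relative to 2X replicate 1, estimated from values under 0.3 FPKM, ranged from 0.975 to 1.10. Actin (VIT_04s0044g00580), the reference gene of the study's qPCR, had 1234, 1070 and 1021 FPKM in 4X replicates 1, 2 and 3, against 1239, 1147 and 1292 FPKM in 2X replicates 1, 2 and 3. For actin, 4X replicates 2 and 3 were below the 2X range and 4X replicate 1 was inside it. KNAP2 (VIT_18s0001g08380), a homeobox gene used here as the mark of the shoot tip, is also among the auxin genes that the study selected as lower in 4X on these libraries, so its direction was fixed by that choice. It was present in all 6 libraries, with 43.2 to 56.8 FPKM in 4X and 63.6 to 87.3 FPKM in 2X (adjusted p = 0.195 from limma, described below). Its libraries did not overlap between the ploidies, and what part the amount of shoot tip tissue has in the results was not tested. Over all genes, 195 were called higher and 578 lower in 4X without 4X replicate 1, against 11 and 5 with it, so the comparisons below are also given without this library.

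The 9 genes fell into 4 levels of expression. At the top were VIT_17s0053g00990 and VIT_06s0004g04860, with at least 303.7 FPKM in every library. A middle group of VIT_14s0108g01020, VIT_04s0079g00420 and VIT_01s0026g02620 had means over the 6 libraries of 133, 122 and 102 FPKM. VIT_13s0067g02930 stood alone below them, at a mean of 33.2 FPKM. The last 3, VIT_18s0001g01130, VIT_06s0004g00070 and VIT_15s0021g02700, averaged 0.674, 0.570 and 0.0427 FPKM, under the limit of 1 FPKM that was set for testing. Of the 9 listed genes, 6 thus had transcripts in amount and the other 3 only traces. Expansin genes outside the list were not examined.

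**Figure D1:**
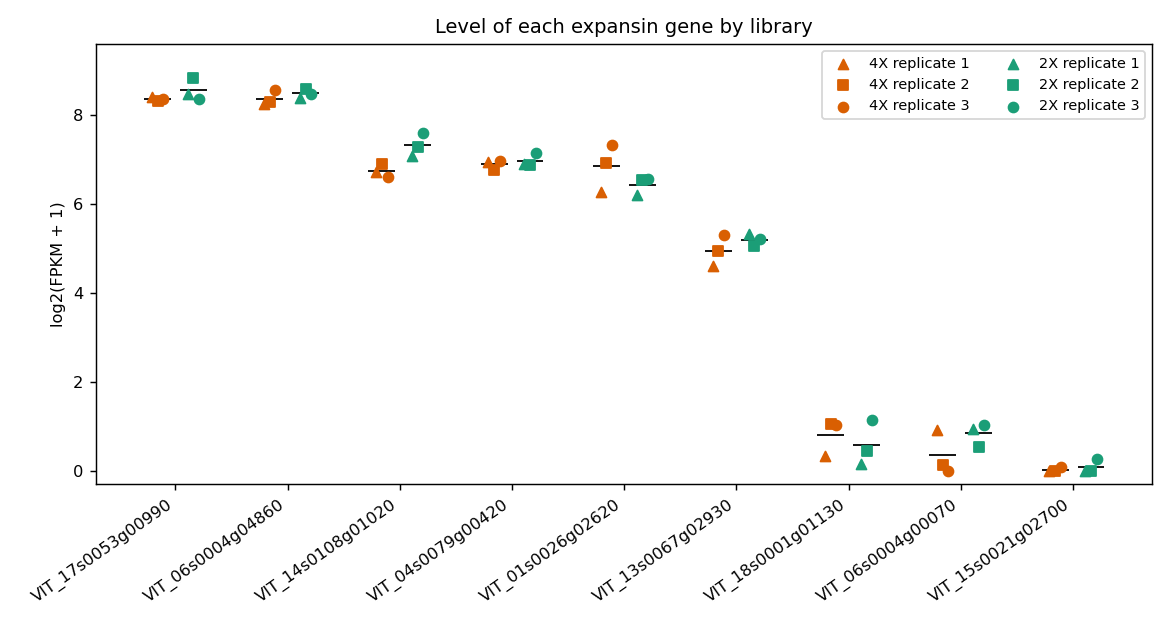
Level of each of the 9 expansin genes as log2(FPKM + 1), with 4X libraries (orange) left of 2X libraries (green), 1 point per library and a black line at each ploidy's mean on this scale. The top 6 genes lie far above the last 3, and VIT_14s0108g01020 is the gene among those 6 whose 4X points all lie below its 2X points.

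VIT_17s0053g00990 had 336.7, 317.3 and 329.4 FPKM in 4X replicates 1, 2 and 3, against 355.5, 459.0 and 326.2 FPKM in 2X replicates 1, 2 and 3. The 4X libraries lay close together, and the 2X libraries were spread more widely and overlapped them. By its mean this gene was number 521 of the 29971 genes. VIT_06s0004g04860, number 538 by the same measure, had 303.7, 311.5 and 378.2 FPKM in 4X, against 335.6, 385.2 and 356.9 FPKM in 2X. Here 4X replicate 3 lay inside the 2X range, and 4X replicates 1 and 2 lay below it. The pair held 63.8% ± 2.08 of the summed FPKM of the 9 genes in 4X and 64.4% ± 4.38 in 2X (SD, n = 3 each). Their own order was not fixed, since VIT_17s0053g00990 was the higher of the pair in 4 of 6 libraries and its mean was 1.03 times that of VIT_06s0004g04860.

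The order was tested between neighbours, on log2(FPKM + 1) within each library, by an exact sign-flip permutation test (two-sided). The ranking came from the means of these same 6 libraries, so the direction of a gap largely follows from it. The p-values therefore describe how steadily a gap held and are not independent evidence for the order. The test can give no p below 0.03125 with 6 libraries, and 8 neighbouring pairs were compared. The first gap in the order, from VIT_06s0004g04860 to VIT_14s0108g01020, was present in 6 of 6 libraries, with a median log2 difference of 1.35 and an exact p of 0.03125 (adjusted over the 8 pairs, 0.0833). The next gap, from VIT_01s0026g02620 to VIT_13s0067g02930, also held in 6 of 6 libraries with the same p, at a median log2 difference of 1.57. From VIT_13s0067g02930 to the highest of the trace genes, VIT_18s0001g01130, the mean FPKM differed by 49.2-fold, again in 6 of 6 libraries and with that p. These values are the smallest the test allows, and none of the 8 pairs passed an adjusted p of 0.05. Within the middle group, with both ploidies pooled, the test did not separate VIT_14s0108g01020 from VIT_04s0079g00420 (exact p = 0.531). Nor did it separate VIT_04s0079g00420 from VIT_01s0026g02620 (exact p = 0.1875). Each of these pairs kept its order in 3 of 3 libraries of 2X and in 1 of 3 of 4X. The pooled p-values thus do not describe the spread within a ploidy. In 2X the order VIT_14s0108g01020, VIT_04s0079g00420, VIT_01s0026g02620 held in 3 of 3 libraries. The same order was found in 0 of the 3 libraries of 4X, where VIT_01s0026g02620 was the highest of these genes in replicates 2 and 3.

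**Figure D2:**
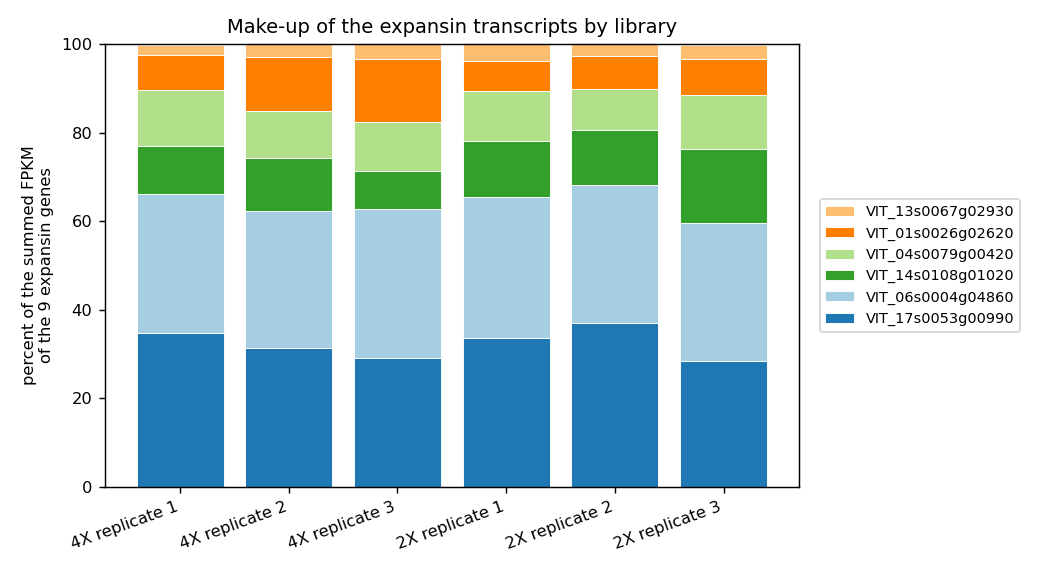
Percent of the summed FPKM of the 9 expansin genes taken by each of the 6 abundant genes (stacked bars from 0, 1 bar per library, 4X libraries left of 2X libraries); the 3 trace genes are too small to draw. VIT_01s0026g02620 (orange) takes 14.2% in 4X replicate 3 and between 6.84% and 8.10% in the 2X libraries, whereas VIT_14s0108g01020 (dark green) takes 8.52% in 4X replicate 3 and between 12.5% and 16.8% in 2X.

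The summed FPKM of the 9 genes was 968, 1008 and 1128 in 4X replicates 1, 2 and 3, against 1056, 1239 and 1147 in 2X replicates 1, 2 and 3. The sums overlapped between the ploidies, with a mean of 1035 ± 83.3 FPKM (SD, n = 3) in 4X, against 1148 ± 91.4 FPKM (SD, n = 3) in 2X, a ratio of 0.902. As a share of all FPKM in the library, the 9 genes took 0.0965% ± 0.00985 in 4X and 0.106% ± 0.00678 in 2X (SD, n = 3 each). No test was made on these sums, because the genes were listed with results of the series known.

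To compare the ploidies gene by gene, limma was fitted to log2(FPKM + 1) of the 18119 genes whose mean reached 1 FPKM. limma is a linear model in which each gene's variance is drawn towards that of genes at a similar level. The p-values are two-sided and adjusted over all genes tested by the Benjamini-Hochberg method, and a gene is called at an adjusted p under 0.05. Log2 fold changes are 4X over 2X on this scale. Of the 9 expansin genes 6 were tested, and limma called 0 of them higher and 0 lower. Among all genes tested it called 0.0607% higher and 0.0276% lower, so calls were rare throughout. At an unadjusted p under 0.05 there were 0 expansins higher, where the share of all genes was 7.79%, and 1 lower, where it was 6.53%. Likewise 0 of the 6 genes had all 4X libraries above all 2X libraries, as 11.2% of all genes did, and 1 had all 4X libraries below, as 8.85% did. With 6 genes, counts of 0 and 1 are near what these shares give. The 6 genes had a median log2 fold change of -0.16, beside 0.01 over all genes tested.

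The member with its libraries apart was VIT_14s0108g01020. It had 104.5, 119.2 and 96.1 FPKM in 4X replicates 1, 2 and 3, against 133.8, 154.3 and 192.5 FPKM in 2X replicates 1, 2 and 3. The highest 4X library thus lay below the lowest 2X library, and 4X replicate 1 was as low as the other libraries of its ploidy. Its mean was 107 ± 11.7 FPKM (SD, n = 3) in 4X, against 160.2 ± 29.8 FPKM (SD, n = 3) in 2X, and the log2 fold change was -0.57 (SE 0.15). Its unadjusted p was 0.00737, and the adjusted p of 0.195 from limma was above the threshold. An exact permutation test of the 3 libraries against 3 gave p = 0.1, which is the smallest p it can give. Over the alternatives the adjusted p from limma ranged from 0.141 to 0.542. This gene is also in the study's list of cell wall organization, which was drawn from genes that the study found lower on these same libraries, so its direction there is not independent evidence.

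VIT_01s0026g02620 was the only one of the 6 tested genes with a positive log2 fold change, and its 4X libraries differed most among themselves. Its level was 76.5, 120.7 and 160.2 FPKM in 4X replicates 1, 2 and 3, against 72.3, 91.8 and 92.9 FPKM in 2X replicates 1, 2 and 3. So 4X replicate 1 lay inside the 2X range, while 4X replicates 2 and 3 lay above it. Over all 6 libraries the log2 fold change was 0.42 (SE 0.26), with an adjusted p of 0.524 from limma. With 4X replicate 1 left out it was 0.70 (SE 0.17), and limma gave it an unadjusted p of 0.00537, or 0.0773 after adjustment. Leaving out 4X replicate 3 gave 0.17 instead. The coefficient of variation was 35.2% in 4X and 13.6% in 2X. The identifier stands in a list of extracellular genes that the study drew from those it found higher on these libraries, so this direction too has no independent support.

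The 4 other abundant genes had overlapping libraries. For VIT_17s0053g00990 the log2 fold change was -0.20 (SE 0.14), and for VIT_06s0004g04860 it was -0.12 (SE 0.12), with adjusted p-values of 0.580 and 0.706 from limma. VIT_04s0079g00420 was the steadiest of the 6 genes, with 122.1, 108.5 and 124.8 FPKM in 4X replicates 1, 2 and 3, against 119.0, 116.0 and 140.0 FPKM in 2X replicates 1, 2 and 3. Its log2 fold change of -0.07 (SE 0.11) had an adjusted p of 0.810 from limma, and the 95% interval of its ratio ran from 0.797 to 1.13. The intervals of VIT_17s0053g00990 and VIT_06s0004g04860 ran from 0.692 to 1.10 and from 0.756 to 1.12. These bounds are not adjusted for the number of genes and do not mark the smallest difference that could be called. The model allows any ratio inside them, so the missing calls do not show equal levels.

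VIT_13s0067g02930, the lowest of the 6 tested genes, had 23.5, 29.6 and 38.3 FPKM in 4X replicates 1, 2 and 3, against 39.3, 32.1 and 36.3 FPKM in 2X replicates 1, 2 and 3. The 4X libraries 1 and 2 were below the 2X range and replicate 3 was inside it. With all libraries the log2 fold change was -0.25 (SE 0.18) at an adjusted p of 0.584 from limma, and without 4X replicate 1 it was -0.08. For this gene 4X replicate 1 was thus the library farthest from 2X, whereas for VIT_01s0026g02620 it was the nearest. Leaving out 4X replicate 1 moved the log2 fold change of VIT_14s0108g01020 only to -0.56.

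**Figure D3:**
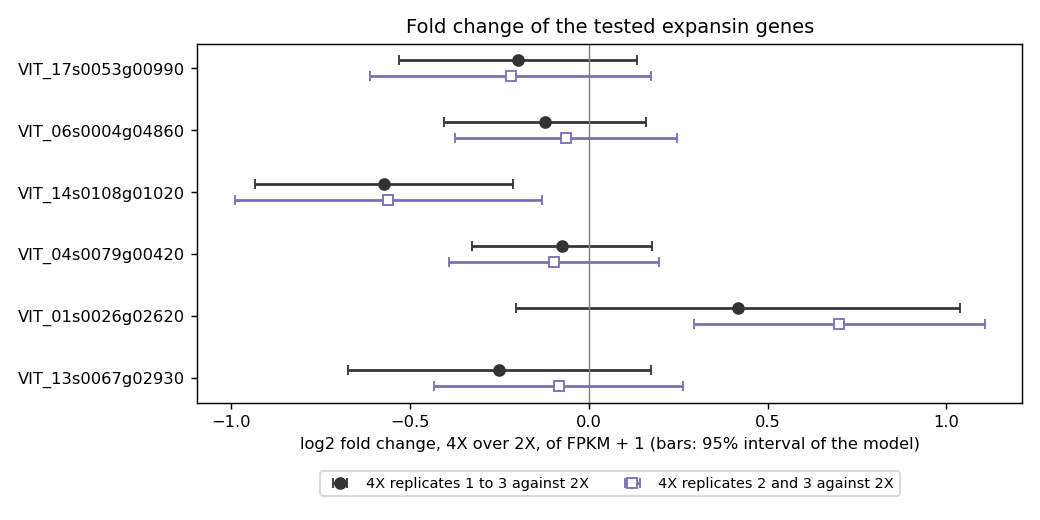
Log2 fold change of FPKM + 1, 4X over 2X, of the 6 tested expansin genes with the 95% interval of the model (bars), for all 6 libraries (filled circles) and without 4X replicate 1 (open squares). The interval of VIT_14s0108g01020 lies below 0 in both fits, and that of VIT_01s0026g02620 lies above 0 only without 4X replicate 1; these intervals are not adjusted for the number of genes, and neither gene was called.

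With 4X replicate 1 left out, limma called 0 of the 6 genes in either direction, where it called 1.08% of 18121 genes higher and 3.19% lower. At an unadjusted p under 0.05 there was 1 expansin higher, VIT_01s0026g02620, where the share of all genes was 10.2%, and 1 lower, VIT_14s0108g01020, where it was 10.9%. The same 2 genes were those with their libraries apart, 1 in each direction, as 21.8% of all genes were apart and higher and 18.7% apart and lower. With 6 genes, these counts of 0 and 1 are near what the shares give. The medians of the log2 fold change were then -0.09 for the 6 genes and 0.03 for all genes.

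Library by library, the 6 tested genes lay differently against their 2X ranges. In 4X replicate 1, 3 of the 6 genes were below the 2X range and 3 inside it. In 4X replicate 2, 5 were below it and 1 above. In 4X replicate 3, 4 were inside the range, with VIT_14s0108g01020 below and VIT_01s0026g02620 above. The share of all genes outside the 2X range in a single library was not counted, so these counts only describe the 6 genes. The median difference of the 6 genes from the 2X mean was -0.20, -0.22 and 0.04 on the log2 scale in 4X replicates 1, 2 and 3. For all genes tested these medians were -0.01, 0.03 and 0.02. The spread within a ploidy, as a residual SD on the log2 scale, ranged from 0.13 for VIT_04s0079g00420 to 0.40 for VIT_01s0026g02620. Its median over the 6 genes was 0.20, beside 0.14 over the 8307 genes whose mean reached 20 FPKM.

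By their 4X means VIT_01s0026g02620 and VIT_14s0108g01020 lay on opposite sides of 2X, although in 4X replicate 1 both were below the 2X mean, at -0.15 and -0.60 on the log2 scale. Their ratio within a library does not depend on how libraries are scaled. The FPKM of VIT_01s0026g02620 was 0.732, 1.01 and 1.67 times that of VIT_14s0108g01020 in 4X replicates 1, 2 and 3, against 0.540, 0.595 and 0.483 times in 2X replicates 1, 2 and 3. The ratios did not overlap between the ploidies, and 4X replicate 1 was the nearest of the 4X libraries to 2X. The mean ratio was 1.14 ± 0.480 in 4X and 0.540 ± 0.0561 in 2X (SD, n = 3 each). This pair was chosen after the values were seen, and VIT_14s0108g01020 was apart between the ploidies by itself. The ratio is therefore no separate result but a description, and it was not tested. The share of gene pairs with ratios apart was not counted.

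The genes at trace level were not tested in the main fit. VIT_06s0004g00070 had 0.899 and 0.0871 FPKM in 4X replicates 1 and 2 and was listed at 0 in 4X replicate 3, against 0.929, 0.459 and 1.05 FPKM in 2X replicates 1, 2 and 3. Here 4X replicate 1 was again inside the 2X range, and the other libraries of 4X were below it. VIT_18s0001g01130 had 0.267, 1.06 and 1.05 FPKM in 4X, against 0.114, 0.362 and 1.19 FPKM in 2X, with the 2X libraries spanning all of the 4X values. VIT_15s0021g02700 was listed at 0 in 4 of the 6 libraries, with 0.0551 FPKM in 4X replicate 3 and 0.201 FPKM in 2X replicate 3. With no filter on low values all 9 genes were fitted among 23243 genes, and the adjusted p-values of these 3 genes were between 0.498 and 0.803 from limma. Differences at this level could not be detected with these libraries.

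Expansins act with other wall proteins and downstream of growth hormones, so the 6 genes were set beside lists from the study's supplement. The list of cell wall organization holds 17 genes, of which VIT_14s0108g01020 is 1 and 16 are not among the expansins described here. The other list holds 12 genes of auxin transport and response, auxin being a hormone that promotes shoot elongation, and AUX1 and PGP1 are in both. All of these genes were tested, and all were selected by the study as lower on these libraries, so their direction is no independent evidence. limma called 0 of the 17 and 0 of the 12, although 12 and 9 had an unadjusted p under 0.05, all of them lower in 4X, where the share of all genes lower at that threshold was 6.53%. The median log2 fold change was -0.68 in each list, against -0.16 for the 6 expansins. Without 4X replicate 1 limma called 13 and 10 genes lower and 0 higher, where it called 3.19% of all genes lower, with medians of -0.92 and -0.89.

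The genes with the largest differences in the lists show their size. VIT_06s0004g07970 of the cell wall list, which has no name in the sources used here, had 57.7 ± 35.1 FPKM (SD, n = 3) in 4X, against 154.9 ± 74.6 FPKM (SD, n = 3) in 2X. The log2 fold change was -1.46 (adjusted p = 0.235 from limma), and without 4X replicate 1 it was -1.92. Its 4X replicate 1 had 98.2 FPKM, just below the 2X range, and 4X replicates 2 and 3 had 36.1 and 38.9 FPKM. VIT_09s0002g00320 of the same list had 31.2 ± 26.0 FPKM (SD, n = 3) in 4X, against 69.1 ± 14.2 FPKM (SD, n = 3) in 2X. Here 4X replicate 1 was inside the 2X range at 61.2 FPKM, while 4X replicates 2 and 3 had 16.8 and 15.5 FPKM, and leaving out 4X replicate 1 moved the log2 fold change to -2.01, against -1.39 with it. IAA29 (VIT_04s0008g05560), a member of the Aux/IAA repressors of auxin signalling, had 16.6 ± 10.9 FPKM (SD, n = 3) in 4X, against 32.9 ± 9.52 FPKM (SD, n = 3) in 2X. Again 4X replicate 1 was inside the 2X range, at 29.2 FPKM, with 10.6 and 9.94 FPKM in 4X replicates 2 and 3. ARG4 (VIT_14s0030g02310), an auxin response gene of the study, had 14.5 ± 5.72 FPKM (SD, n = 3) in 4X, against 29.9 ± 3.91 FPKM (SD, n = 3) in 2X, and its adjusted p from limma was 0.168. Without 4X replicate 1 each of these 4 genes was called lower, with adjusted p-values from 0.00532 to 0.0384 from limma. They are the largest differences in lists that the study selected as lower on these libraries. These calls are therefore not independent evidence. In the order of the 17 cell wall genes by log2 fold change VIT_14s0108g01020 was number 16 from the lowest, so its difference was among the smallest of the list.

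The lists can also be set beside this gene library by library. The 16 other cell wall genes had a median difference from the 2X mean of -0.17, -0.84 and -1.02 on the log2 scale in 4X replicates 1, 2 and 3. For the auxin genes these medians were -0.29, -0.81 and -0.93. VIT_14s0108g01020 lay at -0.60, -0.41 and -0.72, so that 4X replicate 1 was no nearer to 2X than 4X replicate 2. The same was found in 3 of the 16 other cell wall genes and in 1 of the 12 auxin genes. For all genes tested the medians were between -0.01 and 0.03. Whether this gene differed from its list was not tested.

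**Figure D4:**
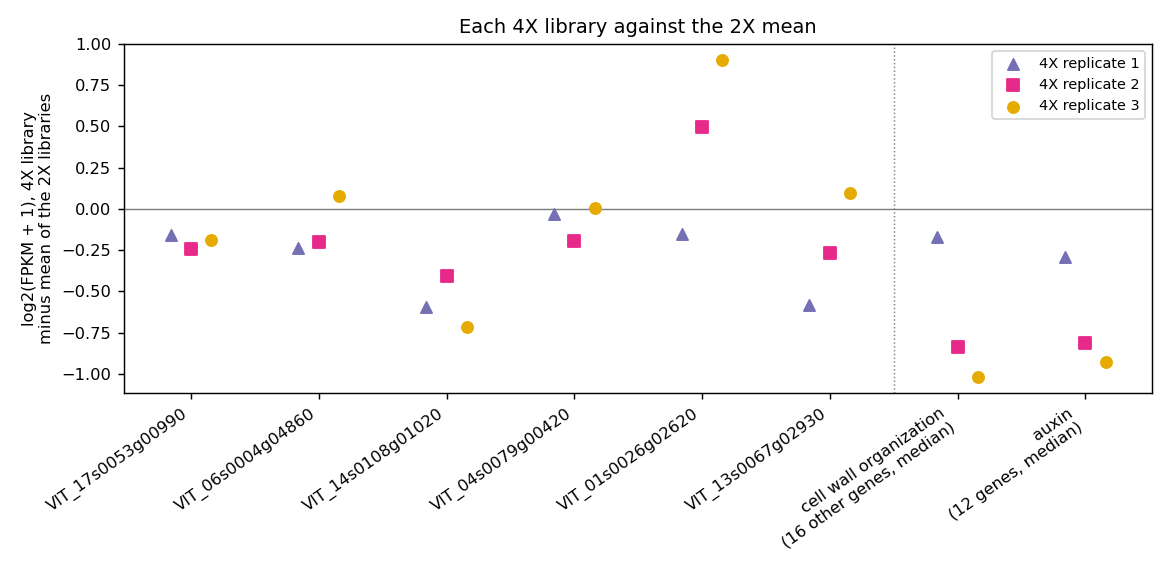
Difference of each 4X library from the mean of the 2X libraries in log2(FPKM + 1), for the 6 tested expansin genes and, right of the dotted line, for the medians of the 16 other cell wall genes and the 12 auxin genes. In both lists 4X replicate 1 (triangles) is nearest to 0, whereas at VIT_14s0108g01020 and VIT_13s0067g02930 it lies at -0.60 and -0.59.

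Likeness of pattern was measured as Pearson's r of log2(FPKM + 1) over the 6 libraries, 3 of each ploidy and similar in depth, and is given with no p. Of the other tested expansins VIT_06s0004g04860 was the most like VIT_17s0053g00990 (r = 0.54), VIT_13s0067g02930 the most like VIT_06s0004g04860 (r = 0.66), and VIT_04s0079g00420 the most like VIT_14s0108g01020 (r = 0.44). The lowest r between any 2 of the 6 was -0.40, between VIT_01s0026g02620 and VIT_14s0108g01020. Genes with a name in the study's primer table were compared too. Many of them were chosen by the study as different between 4X and 2X on these libraries, so a high r can restate that difference. Each r given for them is also the highest of 31 over only 6 libraries. Such a search gives high values among unrelated genes too, and how high was not tested. Among the 31 of these genes that were tested, IAA14, an Aux/IAA gene, was the most like VIT_17s0053g00990 (r = 0.67). CYP707A, which degrades abscisic acid, was the most like VIT_06s0004g04860 (r = 0.66), VIT_04s0079g00420 (r = 0.82) and VIT_13s0067g02930 (r = 0.57). IAA19, another Aux/IAA gene, was the most like VIT_14s0108g01020 (r = 0.83). IAA19 had 131, 111 and 87.0 FPKM in 4X replicates 1, 2 and 3, against 186, 182 and 184 FPKM in 2X replicates 1, 2 and 3. CKX5, a cytokinin oxidase, had an r of 0.94 with VIT_01s0026g02620 and was picked after its value was seen. It had 3.11, 5.22 and 7.50 FPKM in 4X, against 2.04, 2.45 and 3.51 FPKM in 2X, so in this gene too 4X replicate 1 was inside the 2X range.

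The rows next to each expansin in the order of identifiers, 3 on either side, show whether a difference was shared along the chromosome. Beside VIT_14s0108g01020, 5 of the 6 rows were tested, and their log2 fold changes lay between -2.06 and 0.42, around a median of -0.18. The lowest of them had 18.7, 3.32 and 4.00 FPKM in 4X replicates 1, 2 and 3, against 32.9, 30.4 and 28.0 FPKM in 2X replicates 1, 2 and 3. Its adjusted p from limma was 0.194 with all libraries and 0.00126 without 4X replicate 1. Beside VIT_01s0026g02620 all 6 rows were tested, with log2 fold changes from -0.27 to 1.12 and a median of 0.07. The highest of these rows had 5.98, 4.28 and 3.58 FPKM in 4X replicates 1, 2 and 3, against 1.17, 2.47 and 1.18 FPKM in 2X replicates 1, 2 and 3, so that 4X replicate 1 was there the highest library. The rows beside the other 4 tested expansins had medians between -0.13 and 0.03. Beside VIT_04s0079g00420, 1 row had a log2 fold change of 1.80, with means of 13.8 FPKM in 4X and 0 FPKM in 2X. Its libraries overlapped, and its adjusted p from limma was 0.614. The remaining tested rows beside these 4 genes lay between -0.43 and 0.44. Beside VIT_17s0053g00990 and VIT_06s0004g04860, the 2 top genes, the highest mean of any row was 63.9 FPKM.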

How the data were processed

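RNA from terminal buds of 4X and 2X was sequenced in 3 libraries each. The authors trimmed the reads with FASTX-Toolkit and aligned them to the Ensembl Plants genome of V. vinifera, using TopHat2 2.0.14 with Bowtie2. Cufflinks 2.2.1 was used by them for the comparison. The authors deposited FPKM per gene and library. The genome build, strand handling, treatment of reads mapping to several places and any scaling between libraries are not given in the sources used here, and close copies of a gene family could share reads. No column of values was left out (0 columns).

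R 4.3.3 and limma 3.58.1 were used to fit log2(FPKM + 1) of all genes whose mean reached 1 FPKM. The variance followed a trend on expression, and no block was used. The method was also run on simulated data with independent noise in each gene and library. That setting has no library that stands apart, so it does not show how the method handles one such as 4X replicate 1. Further values came from pandas 2.3.3 and numpy 2.4.6 under Python 3.11.15, and matplotlib 3.10.9 drew the plots. The paper's test needs reads and was not repeated. The expansin list, the other lists and the tests were chosen with earlier results of these data known. Genes named are the 9 expansins, actin, KNAP2, the 2 largest log2 fold changes in each list, and the most alike genes of the 3 highest expansins. CKX5 and the neighbouring rows given with values were chosen after their values were seen, and AUX1 and PGP1 are named only as shared by both lists. The alternatives were a pseudocount of 0.1, other filters, scaling to equal sums or medians, quantile normalization, no trend, a replicate block, and leaving out each library. The limma p-values compare a difference between ploidies with the spread between these pooled bud samples, drawn towards that of genes at a similar level. The sign-flip p-values rest on differences between neighbours in the order within each library. The sequences and coordinates of the genes are not used here.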

Additional observations from a re-analysis of the deposited data

How the results depend on the processing

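Under the 14 alternatives limma called 0 of the expansin genes, and the lowest adjusted p was 0.0773. Of 84 log2 fold changes, 83 kept their direction. The exception was VIT_04s0079g00420, whose values spanned -0.125 to 0.009 over the left-out libraries, the last without 2X replicate 3. The number of expansins with libraries apart, 1 in the main analysis, was between 1 and 3 when single libraries were left out. Among all genes 20.1% were apart in either direction with all libraries, and this share is larger with fewer libraries. The count was 2 without 2X replicate 3, where the share was 33.1%, 2 without 4X replicate 1 (40.5%), and 3 without 4X replicate 3 (24.1%). By the mean of 4X alone, 5 of the 9 genes kept their place in the order. With the replicate block the adjusted p of VIT_14s0108g01020 was 0.285 and its log2 fold change -0.573. Same-numbered libraries correlated in their deviations by -0.051 to 0.087, so no strong shared deviation was seen between them. Whether they were collected or prepared together is not given in the sources used here. The block left 0 calls over all genes. Over all genes there were 27 calls higher and 12 lower when libraries were scaled to equal sums, against 11 and 5 in the main analysis, and 0 with no filter on low values. There were also 0 without 2X replicate 1, without 2X replicate 2 or without 4X replicate 3. With no counts in the table, differences between genes under 1 FPKM could not be judged.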
